A study of Homo sapiens with 6 samples.

Results

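The genes described are 10 members of the S100 family, namely S100A4, S100A6, S100A8, S100A9, S100A10, S100A11, S100A12, S100A13, S100P and S100Z. They were taken by name, by a rule that uses no measured value although earlier results of these data were known, and are 10 of the 34905 genes that had at least 1 transcript in the deposited tables. Levels came from sequencing of polyadenylated RNA of THP1, a human monocytic leukaemia line with a rearranged MLL gene. The enzyme under study was ALKBH5, which takes N6-methyladenosine methyl groups off RNA. Its 6 libraries are labelled shCtrl (genotype given as wild-type), shALKBH5 (ALKBH5 knock-down) and ALKBH5 rescue, with n = 2 each, numbered 1 and 2 in the titles. All 3 groups share the THP1 background and the same growth medium. The labels give no hairpin sequence, rescue construct, clone or time after transduction, and do not say that replicates were separate cultures, and p-values below therefore reflect the spread among these libraries alone, part of which may be technical.

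The shallowest library held 14534386 estimated counts and the deepest 24857373. The targeted gene did not follow the labels: ALKBH5 was at 12.4 to 14.6 CPM (counts scaled to the TMM-adjusted library size) in the 3 libraries numbered 1 and at 968 to 1097 CPM in the 3 numbered 2. Every group therefore holds a library of low and a library of high ALKBH5. The group names below are those of the labels, and "number" means the replicate number of the title. Replicate number is called what the titles call it, since no label says what libraries of the same number share.

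S100 proteins are small proteins with a pair of calcium-binding EF-hand loops that mostly work as dimers. Calcium binding exposes a surface with which they hold target proteins such as annexins, cytoskeletal proteins and enzymes, and some members are released from cells and act on the receptors RAGE and TLR4. S100A8 and S100A9 form calprotectin, an abundant cytosolic complex of monocytes and neutrophils that binds calcium, zinc and manganese. Most family members are encoded in a cluster on the long arm of chromosome 1.

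In the GENCODE release 29 annotation (GRCh38), 8 of the 10 genes lie on chromosome 1 between 151982915 and 153631360. S100A9 (ENSG00000163220.10, 153357854 to 153361027, plus strand), S100A12 (ENSG00000163221.8, 153373706 to 153375649, minus strand) and S100A8 (ENSG00000143546.9, 153390032 to 153391188, minus strand) are neighbours with gaps of 12.7 and 14.4 kb. S100A6 (ENSG00000197956.9, 153534599 to 153536244, minus strand) begins 143.4 kb further on. S100A4 (ENSG00000196154.11, 153543613 to 153550136, minus strand) is 7.4 kb beyond it, and S100A13 (ENSG00000189171.14, 153618787 to 153631360, minus strand) another 68.7 kb. S100A10 (ENSG00000197747.8, 151982915 to 151994390) and S100A11 (ENSG00000163191.5, 152032506 to 152047907), both on the minus strand, are 38.1 kb apart and lie 1309.9 kb before S100A9. S100P (ENSG00000163993.6) is at 6693069 to 6697170 of chromosome 4 and S100Z (ENSG00000171643.13) at 76850001 to 76921650 of chromosome 5, both on the plus strand.

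The sequences upstream of 5 members are shown because these are the members that differed between the replicate numbers, with S100A8, S100A9 and S100A12 higher and S100A4 and S100A11 lower in the libraries numbered 2. They are RefSeq sequences (GRCh38.p14) from the 250 bases before a RefSeq start, cut where an exon of GENCODE begins so that only bases outside exons are printed. S100A8 has 3 RefSeq starts and the most upstream is shown. They read 5′ to 3′ on the strand of the gene. Capitals mark TATAAA (the TATA box), TTNNGNAA (a core bound by C/EBP factors) and GAGGAAG (a core bound by PU.1) on either strand. None of these matches overlaps another.
S100A9, chr1:153357604-153357853, plus strand: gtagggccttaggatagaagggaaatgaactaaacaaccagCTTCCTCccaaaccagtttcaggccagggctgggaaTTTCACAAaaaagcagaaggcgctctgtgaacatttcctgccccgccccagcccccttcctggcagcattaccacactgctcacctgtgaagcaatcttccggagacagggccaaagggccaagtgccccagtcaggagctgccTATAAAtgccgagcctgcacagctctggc
S100A8, chr1:153391189-153391438, minus strand: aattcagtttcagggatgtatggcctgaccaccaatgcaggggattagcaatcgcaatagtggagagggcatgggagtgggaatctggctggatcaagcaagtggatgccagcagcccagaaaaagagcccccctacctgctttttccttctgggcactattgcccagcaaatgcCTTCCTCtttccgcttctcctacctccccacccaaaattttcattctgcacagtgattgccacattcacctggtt
S100A12, chr1:153375650-153375871, minus strand: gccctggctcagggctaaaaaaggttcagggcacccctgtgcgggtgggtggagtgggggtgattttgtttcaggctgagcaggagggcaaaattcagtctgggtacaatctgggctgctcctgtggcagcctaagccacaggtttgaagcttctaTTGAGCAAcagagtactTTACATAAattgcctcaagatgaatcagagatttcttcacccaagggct
S100A4, chr1:153545886-153546056, minus strand: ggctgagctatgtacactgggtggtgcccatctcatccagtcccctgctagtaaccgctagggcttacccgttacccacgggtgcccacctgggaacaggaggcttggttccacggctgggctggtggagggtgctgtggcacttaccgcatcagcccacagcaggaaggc
S100A11, chr1:152037036-152037254, minus strand: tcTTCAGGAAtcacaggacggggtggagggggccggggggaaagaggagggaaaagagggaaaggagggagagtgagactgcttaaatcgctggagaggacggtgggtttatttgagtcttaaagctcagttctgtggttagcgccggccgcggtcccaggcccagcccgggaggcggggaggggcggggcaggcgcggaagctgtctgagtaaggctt

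Over the full 250 bases before a start, TATAAA occurs 29 bases before the S100A9 start, 29 bases before the middle start of S100A8, 31 before that of S100A4 and 8 before that of S100A12. The last 3 lie in bases that GENCODE puts in an exon and are not printed. S100A6, S100A10 and S100A11 hold no TATAAA in this window. Before the most downstream start of S100A8 the same TATAAA lies at 126 bases. The C/EBP core occurs at 173 bases before S100A9 and at 117 bases before the middle start of S100A8, and before the most downstream start of S100A8 at 214 and 78 bases. Both S100A12 matches, at 94 and 77 bases, are printed above, and of the S100A11 matches, at 248 and 33 bases, only the first is. S100A4 holds no match to the C/EBP or PU.1 core. The PU.1 core occurs before S100A8 and S100A9 and not before S100A12 or S100A11. Members whose sequences are not shown hold such letters too. The PU.1 core occurs at 219 bases before S100Z, which had no counts. The C/EBP core occurs before S100A6 (120 bases), a start of S100A13 (150 bases) and S100P (150 and 83 bases). TATAAA occurs before another start of S100A13 (29 bases), S100P (28 bases) and S100Z (11 bases). Of 35116 RefSeq windows of the same length, 10.7% hold TATAAA, 33.2% the C/EBP core and 11.2% the PU.1 core, so none of these letters is rare. Among the windows searched, TGANTCA (an AP-1 site, in 6.57% of all windows) occurs only before S100A12, as TGAATCA at 57 bases, and the ISRE core (an interferon response element, in 3.02%) before no member. A match is a description of letters and not of a bound site.

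Per transcript length, the family ran from the most abundant transcripts of THP1 to genes with no reads. S100A9 was at 14145 to 21610 TPM (a share of all transcripts, corrected for length) and ranked 2 among all genes, and its calprotectin partner S100A8 was at 3378 to 6431 TPM and ranked 16. S100A4, which binds non-muscle myosin, was at 2003 to 2802 TPM (rank 42), S100A11, a partner of annexin A1, at 1530 to 1864 TPM (rank 74) and S100A6 at 1013 to 1143 TPM (rank 124). S100A10, the partner of annexin A2, was at 293 to 382 TPM (rank 341), S100A12, a secreted ligand of RAGE, at 85.0 to 273 TPM (rank 783), and S100A13, linked to release of FGF1, at 6.39 to 9.36 TPM (rank 9007). No neighbours in this order overlapped over the 6 libraries, except S100P and S100Z at its foot. The 10 genes together held 2.40% to 2.57% of all TPM in the libraries numbered 1 and 3.03% to 3.38% in those numbered 2, and S100A8, S100A9 and S100A12 made up 75.5% to 76.0% and 83.6% to 83.7% of that sum. Fewer cells of a type and less RNA per cell cannot be told apart in such bulk libraries.

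**Figure D1:**
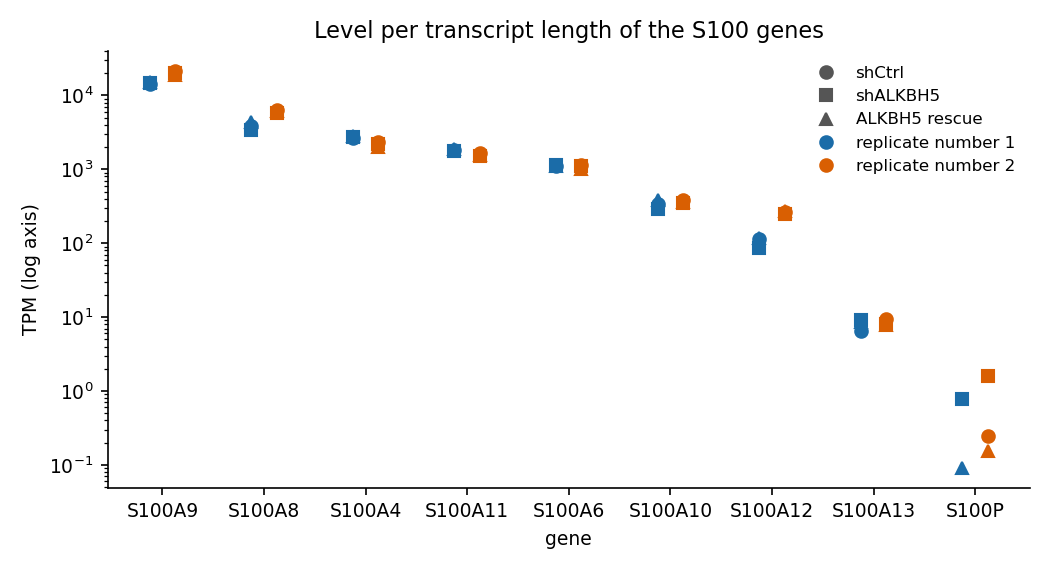
TPM (log axis) of the S100 genes with at least 1 estimated count, ordered by mean, with 1 point per library, shape for the labelled group and colour for the replicate number. S100A9 lies at 14145 to 21610 TPM and S100A13 at 6.39 to 9.36 TPM; the shCtrl library numbered 1 has no S100P count and so no point there, and S100Z had none in any library.

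S100P, first found in placenta, and S100Z did not pass the filter on low counts, and the other 8 members did. S100P had 0 and 4 estimated counts in the shCtrl libraries numbered 1 and 2, 3 and 9 in those of shALKBH5, and 2 and 2 in those of ALKBH5 rescue. Its 20 counts in all give at most 0.472 CPM in a library, with an exact Poisson upper limit of 0.897 CPM (95%, for counting error only). S100Z had 0 counts in all 6 libraries, which allows a level of up to 0.130 to 0.217 CPM per library at 3 counts. Neither gene could be compared between groups at this depth.

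The groups are crossed with the replicate numbers, so the libraries numbered 2 were compared with those numbered 1 in a fit with group as a covariate. Of the 8 members tested, S100A8, S100A9 and S100A12 were higher, S100A4 and S100A11 were lower, and S100A6, S100A10 and S100A13 did not pass the test. That is 5 of 8 members called by edgeR's quasi-likelihood test (adjusted p under 0.05 over 14497 genes), where 45.4% of all genes tested were called, 22.8% higher and 22.6% lower. A share of 5 in 8 is close to this background, so the number of calls does not set the S100 genes apart. The members split in direction, with a median log2 difference of -0.01 against 0.01 for all genes. CPM ranges of the numbers did not overlap for the same 5 members, and 57.7% of all genes tested did not overlap either.

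The calgranulins, as S100A8, S100A9 and S100A12 are also called, were higher in the libraries numbered 2. S100A12, a ligand of RAGE found in neutrophils and monocytes, was at 25.9 and 60.9 CPM in the shCtrl libraries numbered 1 and 2, at 19.5 and 53.6 CPM in those of shALKBH5, and at 29.3 and 56.0 CPM in those of ALKBH5 rescue. All 3 libraries numbered 2 lay above all 3 numbered 1. The means were 24.9 ± 4.94 and 56.8 ± 3.71 CPM (SD, n = 3 each), a 2.30-fold difference with a log2 value of 1.20 (SE 0.12, edgeR adjusted p = 7.14e-05). Within the labelled groups the log2 difference was 1.23 in shCtrl, 1.46 in shALKBH5 and 0.93 in ALKBH5 rescue. S100A12 was the only member called whichever of the 6 libraries was left out, with log2 values of 1.08 to 1.35.

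S100A8, the smaller calprotectin subunit, was at 867 and 1409 CPM in shCtrl, at 755 and 1196 CPM in shALKBH5, and at 1048 and 1198 CPM in ALKBH5 rescue (numbers 1 and 2). The ranges did not overlap, although the rescue pair differed little in CPM. Means were 889.8 ± 148 and 1268 ± 122 CPM (SD, n = 3 each), a 1.43-fold difference (log2 0.52, SE 0.11, edgeR adjusted p = 0.00474). The log2 CPM difference was 0.70 and 0.66 within shCtrl and shALKBH5 and 0.19 within ALKBH5 rescue. On the log2 TPM scale these were 0.73, 0.79 and 0.46, so the size of the rescue difference depends on the scale. Without the shALKBH5 library numbered 1 or 2 the edgeR adjusted p was 0.0765 or 0.0644.

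S100A9, the larger subunit, was at 3969 and 6017 CPM in shCtrl, at 4105 and 5273 CPM in shALKBH5, and at 4537 and 4759 CPM in ALKBH5 rescue. Each number 2 library was again above every number 1 library, with the rescue pair closest together. Means were 4204 ± 296 and 5349.6 ± 632 CPM (SD, n = 3 each), a 1.27-fold difference (log2 0.34, SE 0.12, edgeR adjusted p = 0.0403). The rescue pair differed by 0.07 on the log2 CPM scale and by 0.34 on the log2 TPM scale, so the difference within this group depends on the scale. The call was lost without either shCtrl library (log2 0.23, edgeR adjusted p = 0.142 and 0.143), without either shALKBH5 library (edgeR adjusted p = 0.263 and 0.256) and with RLE scaling (edgeR adjusted p = 0.0505).

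The balance between the calgranulins differed with the number as well. S100A8 stood to S100A12 at TPM ratios of 34.3, 39.7 and 37.2 in the libraries numbered 1 (shCtrl, shALKBH5, rescue) and at 24.2, 23.3 and 22.2 in those numbered 2. S100A9 stood to S100A8 at 3.66, 4.34 and 3.41 in number 1 and at 3.36, 3.47 and 3.14 in number 2, and these ranges overlap. S100A9 and S100A12 each have 1 annotated transcript in the tables. S100A8 is divided between a transcript of 495 bases (ENST00000368732), with 53.8% to 65.5% of its counts, and one of 523 bases (ENST00000368733) with 30.7% to 42.2%. A non-coding S100A8 transcript (ENST00000477801) held 3.84% to 4.29% of the counts in number 1 and 2.29% to 2.49% in number 2.

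**Figure D2:**
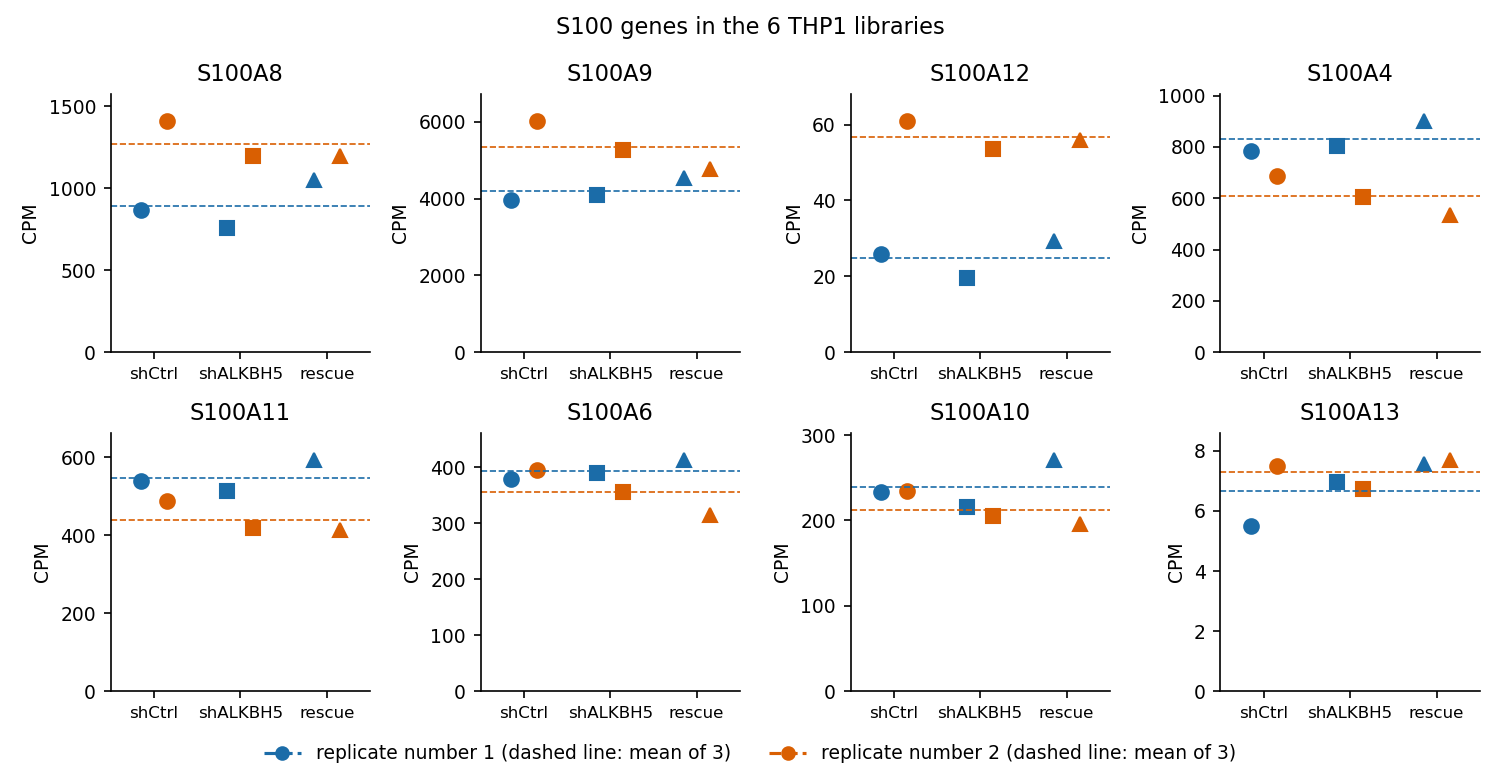
CPM of the 8 tested S100 genes in each library, by labelled group (shape) and replicate number (colour), with a dashed line at the mean of the 3 libraries of a number and axes from 0. S100A8, S100A9 and S100A12 lie higher in number 2, for S100A12 at 53.6 to 60.9 against 19.5 to 29.3 CPM, and S100A4 and S100A11 lie lower.

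S100A4 and S100A11 were lower in the libraries numbered 2. S100A4, known for its part in cell motility through non-muscle myosin, was at 784 and 685 CPM in shCtrl, at 803 and 606 CPM in shALKBH5, and at 900.4 and 535 CPM in the rescue group. The ranges did not overlap, and the gap was widest in the rescue pair. Means were 829 ± 62.4 and 609 ± 75.1 CPM (SD, n = 3 each), 1.37-fold lower in number 2 (log2 -0.45, SE 0.11, edgeR adjusted p = 0.00857). The log2 CPM difference was -0.19 within shCtrl, -0.41 within shALKBH5 and -0.75 within ALKBH5 rescue. On the log2 TPM scale these were -0.19, -0.30 and -0.48. Without the shALKBH5 library numbered 2 the edgeR adjusted p was 0.0529. The coding transcript ENST00000368716 held 94.2% to 95.4% of the S100A4 counts, and the processed transcript ENST00000468373 held 3.06% to 3.36% in number 1 and 1.64% to 1.77% in number 2.

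S100A11, which binds annexin A1, was at 538 and 487 CPM in shCtrl, at 513 and 418 CPM in shALKBH5, and at 592 and 414 CPM in ALKBH5 rescue. Every number 2 library was below every number 1 library. Means were 548 ± 40.6 and 439.9 ± 41.2 CPM (SD, n = 3 each), 1.25-fold lower in number 2 (log2 -0.32, SE 0.09, edgeR adjusted p = 0.0201). Without the shALKBH5 library numbered 1 or 2 the edgeR adjusted p was 0.175 or 0.185. Of the 649 stretches of 31 bases in its transcripts, 47 (7.24%) also occur in other genes, among them the pseudogenes S100A11P1 and S100A11P2, so a small part of its counts may have been split.

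S100A6, S100A10 and S100A13 did not pass the test between the numbers. S100A6, also named calcyclin, was at 379 and 396 CPM in shCtrl, at 389.9 and 356 CPM in shALKBH5, and at 413 and 315 CPM in ALKBH5 rescue, with overlapping ranges (log2 -0.15, 95% interval -0.37 to 0.07, edgeR adjusted p = 0.230). S100A10, which carries annexin A2 to the plasma membrane, was at 233 and 235 CPM in shCtrl, at 216 and 205 CPM in shALKBH5, and at 271 and 196 CPM in ALKBH5 rescue. Its ranges overlapped too (log2 -0.17, 95% interval -0.40 to 0.05, edgeR adjusted p = 0.186), and on the log2(TPM + 1) scale the sign was positive (0.11, limma adjusted p = 0.287). The S100A10 transcript ENST00000368811 held at least 81.4% of its counts in each library.

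S100A13, a low-level member that takes part in release of proteins without a signal peptide, was at 5.50 and 7.50 CPM in shCtrl, at 6.97 and 6.72 CPM in shALKBH5, and at 7.56 and 7.69 CPM in ALKBH5 rescue. These levels rest on 76 to 174 estimated counts and overlap between the numbers (log2 0.13, 95% interval -0.22 to 0.48, edgeR adjusted p = 0.526). Between 77.8% and 100% of these counts were given to 2 non-coding transcripts of the gene, and the 4 coding transcripts held 0 to 16.9 counts. Of its stretches of 31 bases 7.89% also occur in S100A1, which overlaps it on the opposite strand. The sources used here do not give the strand setting of the quantification, so the S100A13 level is uncertain.

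**Figure D3:**
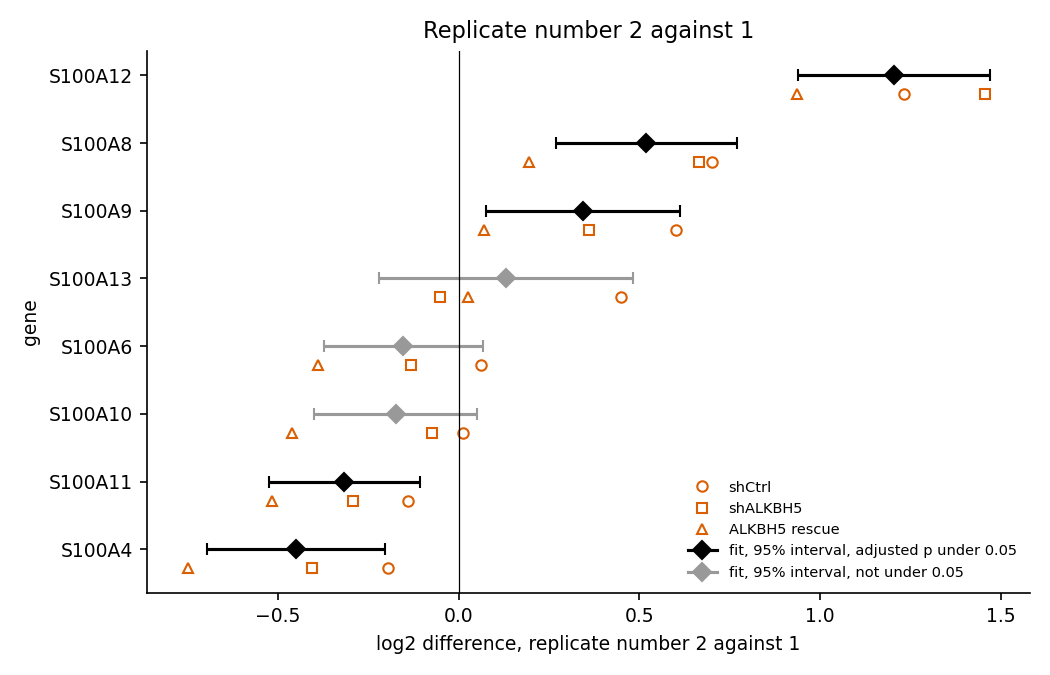
Log2 difference of the libraries numbered 2 against those numbered 1, with the edgeR value and its 95% interval as diamonds (black where the adjusted p was under 0.05) and the CPM difference within each labelled group as open symbols. S100A12 stands at 1.20 and S100A4 at -0.45; the rescue pair lies lowest of the 3 pairs for every gene except S100A13.

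The labelled groups were compared next, which is the comparison the study was laid out for. Between shALKBH5 and shCtrl, edgeR called 0 of the 8 members and 0 genes in all (0% of 14497), with 38 genes and 0 members at an unadjusted p under 0.05. DESeq2 and limma on log2(TPM + 1) also called 0 genes. In shALKBH5, 7 of the 8 members had a lower fitted value and 1 a higher, with a median log2 of -0.11 against -0.03 for all genes, and edgeR adjusted p = 1 for each. Without a block for replicate number the spread includes the number difference, and the intervals are wide: -1.79 to 1.29 for S100A12, -0.99 to 0.55 for S100A8 and -0.67 to 0.49 for S100A9.

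With replicate number as a block, 0.00690% of genes (1 gene) were called between shALKBH5 and shCtrl and again 0 members, with 347 genes and 0 members at an unadjusted p under 0.05. The member nearest to a call was S100A12, at log2 -0.28 (SE 0.14, 95% interval -0.61 to 0.04, edgeR adjusted p = 0.978). It was lower in shALKBH5 within both numbers, by log2 values of -0.41 in number 1 and -0.18 in number 2. S100A8 was likewise lower within both numbers, at -0.20 and -0.24 (blocked fit -0.22, 95% interval -0.53 to 0.09, edgeR adjusted p = 0.978). So were S100A10, at -0.11 and -0.20, and S100A11, at -0.07 and -0.22. How many of all tested genes kept 1 sign within both numbers was not counted. For S100A9 the pairs differed in sign, at 0.05 and -0.19, and for S100A4 at 0.03 and -0.18. S100A10, at 216 and 205 CPM in shALKBH5 against 233 and 235 CPM in shCtrl, was the only member whose 2 groups did not overlap in CPM, and 17.5% of all genes tested did not overlap either. On the TPM scale the S100A10 groups overlapped.

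Between ALKBH5 rescue and shALKBH5, a comparison that shares the shALKBH5 libraries with the first, edgeR called 0 members and 0 genes (0% of 14497), with 43 genes and 0 members at an unadjusted p under 0.05. Of the 8 members, 6 had a higher and 2 a lower fitted value, with a median log2 of 0.13 against 0.01 for all genes. With the block 0% of genes and 0 members were called, and 290 genes were at an unadjusted p under 0.05. S100A12 was again nearest to a call (blocked log2 0.31, SE 0.14, 95% interval -0.01 to 0.63, edgeR adjusted p = 1.00). Its pairs differed in size, at 0.58 in number 1 and 0.06 in number 2, as did those of S100A8 at 0.47 and 0.00 and those of S100A10 at 0.33 and -0.06. S100A13 was the only tested member whose groups did not overlap in CPM, against 11.9% of all genes tested, and its TPM groups did overlap. On the TPM scale it was S100A10 whose groups did not overlap, with the rescue libraries higher.

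Between ALKBH5 rescue and shCtrl, edgeR called 0 members and 0 genes (0% of 14497), with 46 genes and 0 members at an unadjusted p under 0.05. With the block it called 1 gene (0.00690%) and 0 members, with 239 genes and 0 members at an unadjusted p under 0.05. Fitted values were higher for 1 member and lower for 7, and with the block higher for 3 and lower for 5, with medians of -0.03 against -0.01 for all genes in both. Within number 1 the 8 members were between 0.12 and 0.46 higher in the rescue library on the log2 CPM scale. Within number 2, 7 of them were lower, by -0.36 for S100A4 and -0.34 for S100A9 at the far end, and S100A13 was at 0.04. The counting interval within number 1 included 0 for S100A12 (-0.0097 to 0.37). Those within number 2 included 0 for S100A12 (-0.25 to 0.006) and S100A13 (-0.32 to 0.39). On the log2 TPM scale these members changed sign within number 2, to 0.04 for S100A12 and -0.28 for S100A13, and the other members kept theirs. How many of all tested genes were higher within number 1 and lower within number 2 was not counted, so this pattern does not set the S100 genes apart. S100A13 was again the only member whose groups did not overlap in CPM, against 10.1% of all genes tested, and its groups overlapped on the TPM scale.

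**Figure D4:**
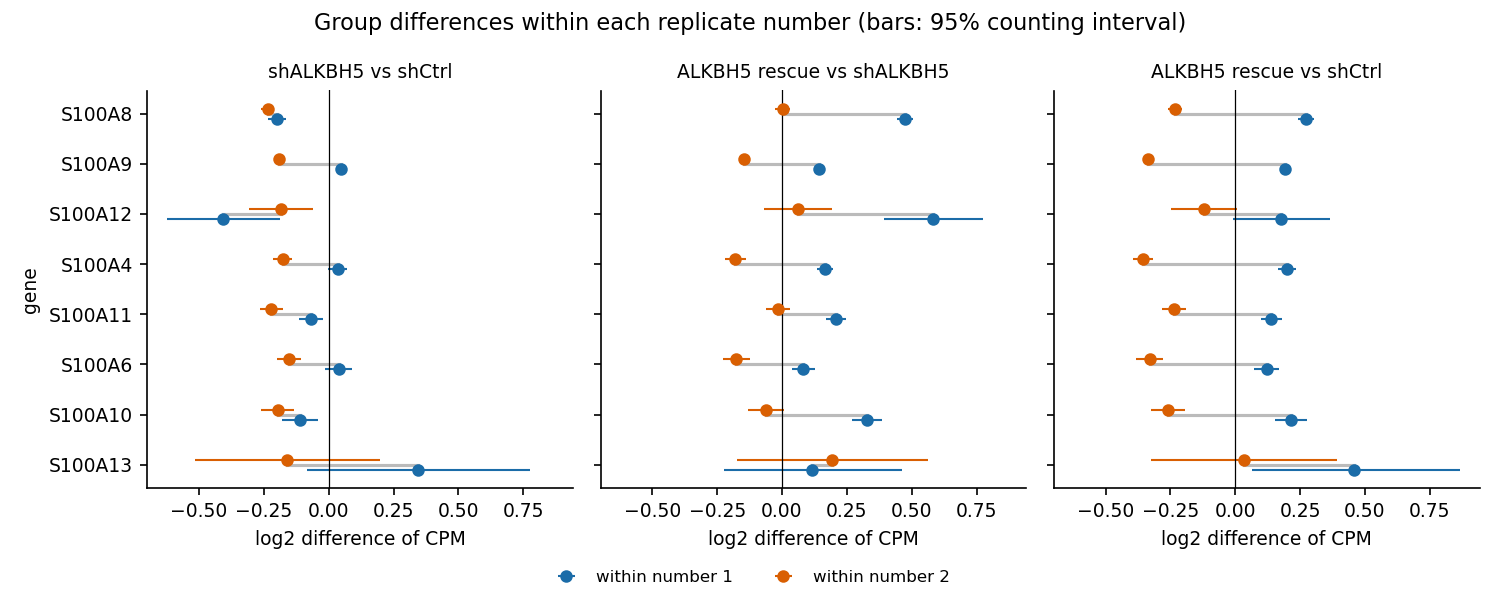
Log2 difference of CPM for the 3 labelled comparisons, within number 1 and within number 2, with 95% counting intervals as bars, which do not include the spread between libraries, and grey lines joining both numbers of a gene. In the panel of rescue against shCtrl the points of number 1 lie above 0 for all 8 genes and those of number 2 below 0 for all but S100A13.

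A list of 11 other S100 genes and S100PBP had 6 genes tested. Of these, 2 were higher in the libraries numbered 2, 0 lower and 4 not called. Over all genes tested, 22.8% were called higher and 22.6% lower. Among the S100 genes alone 1 of 5 tested was higher. S100A3, which lies inside the annotated span of S100A4, was at 2.35 ± 0.472 and 4.20 ± 0.184 CPM (SD, n = 3 each) in numbers 1 and 2 (log2 0.84, SE 0.20, edgeR adjusted p = 0.00751). S100PBP, which encodes a binding protein of S100P and is not itself an S100 gene, was at 27.5 ± 1.76 and 35.4 ± 2.41 CPM (log2 0.36, SE 0.11, edgeR adjusted p = 0.0224). S100A1, S100A2, S100A5 and S100B did not pass the test. S100A7, S100A7A, S100A7L2, S100A16 and S100G had 0 counts in every library. Of the 75 annotated genes in the tables between S100A10 and S100A13, 14 were tested, and of the 6 that are not members 1 was higher (S100A3), 1 lower (the hair follicle gene TCHH, log2 -0.59, SE 0.12, edgeR adjusted p = 0.00282) and 4 were not called, so calls in the cluster went both ways.

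Of 10 tested genes of receptors and surface proteins that S100 proteins bind, 2 were higher in number 2, 4 lower and 4 not called. Calls covered 45.4% of all genes tested. CD14, a co-receptor of TLR4, was at 224 ± 14.4 and 136 ± 7.62 CPM (SD, n = 3 each; log2 -0.72, SE 0.08). TLR4 itself went the other way, at 15.4 ± 1.25 and 20.8 ± 3.12 CPM (log2 0.43, SE 0.14, edgeR adjusted p = 0.0323). AGER, the gene of RAGE, was at 0.262 to 0.628 CPM and was not tested. TLR4 and AGER are named outside the naming rule, after their values were seen. BSG, the basigin receptor of S100A9, stood at log2 -0.47 (SE 0.09), CD33 at 0.35 (SE 0.09) and CXCR3 at -2.10 (SE 0.33), with edgeR adjusted p = 0.00233, 0.0111 and 0.000811. CXCR3 was low, with means of 2.07 and 0.479 CPM in numbers 1 and 2. NPTN, a neuroplastin that binds S100A8, was at log2 0.05 (SE 0.08, edgeR adjusted p = 0.667) and did not pass.

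Of 17 tested genes for intracellular partners, 2 were higher, 7 lower and 8 not called in number 2. Over all genes tested, 22.8% were called higher and 22.6% lower. Of 5 annexins tested, 3 were lower and 2 were not called. ANXA2, the partner of S100A10, was at 810.4 ± 59.6 and 523 ± 60.0 CPM (SD, n = 3 each; log2 -0.64, SE 0.10), ANXA1, the partner of S100A11, at 277 ± 25.4 and 167 ± 8.21 CPM (log2 -0.73, SE 0.08), and ANXA6 at log2 -0.96 (SE 0.09). ANXA5 at 0.14 (edgeR adjusted p = 0.157) and ANXA11 at -0.06 (edgeR adjusted p = 0.607) did not pass, and are named outside the naming rule, after their values were seen. CYBA, a membrane subunit of the phagocyte NADPH oxidase, was at log2 0.10 (SE 0.09, edgeR adjusted p = 0.405) and did not pass. This value does not stand for the other oxidase subunits, which are not described here. MYH9, the myosin heavy chain bound by S100A4, was level between the numbers in this fit, at -0.01 (SE 0.09, edgeR adjusted p = 0.956). ANXA2 and ANXA1 were lower, as were S100A11 and 22.6% of all genes tested, while S100A10 itself was not called.

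Among 10 myeloid transcription factors linked to calprotectin genes, 2 were higher, 3 lower and 5 not called in number 2. Calls covered 45.4% of all genes tested. CEBPB, which activates S100A8 and S100A9, was at log2 -0.55 (SE 0.15, edgeR adjusted p = 0.0160) and HIF1A at 0.60 (SE 0.12, edgeR adjusted p = 0.00349). CEBPA at 0.18, SPI1 (the gene of PU.1) at -0.15, MYB at 0.06 and CEBPD at 0.00 did not pass. None of these lists had a gene called by edgeR between the labelled groups.

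All 15 monocyte markers passed the filter on low counts. Their summed level was 3532 to 3596 CPM in number 1 and 3523 to 3896 CPM in number 2. LYZ was the largest part, at 898 to 1453 CPM. FCN1, named after its values were seen, was low at 1.16 to 2.08 CPM. Of the 15, 6 were higher, 4 lower and 5 not called, where 22.8% of all genes tested were higher and 22.6% lower. Among the higher were LYZ (lysozyme) at log2 0.52 (SE 0.10), FCER1G at 0.39 (SE 0.10) and AIF1 at 0.99 (SE 0.16). The 4 lower were CD14 at -0.72 (SE 0.08), VCAN at -0.70 (SE 0.13), ITGAM at -0.65 (SE 0.08) and CD163 at -0.33 (SE 0.08), of which the last 3 were named after their values were seen. FCGR1A at -0.01 and TYROBP at -0.16 did not pass. Of 15 neutrophil granule and surface genes, 10 were tested. Of these, 4 were higher, 3 lower and 3 not called, against the same shares of all genes. PRTN3 (log2 0.49, SE 0.09) and AZU1 (0.41, SE 0.09) were higher, CTSG (-1.13, SE 0.13) and MMP8 (-2.58, SE 0.40) were lower, and ELANE (-0.05) and MMP9 (0.16) did not pass. The summed level of the neutrophil genes was 1552 to 1770 CPM in number 1 and 1758 to 1967 CPM in number 2. Of the 15, 6 stayed under 1 CPM in every library, among them LTF at 0. MPO, named after its values were seen, was at 1.63 to 2.97 CPM. MMP8 was low, with means of 1.36 and 0.223 CPM in numbers 1 and 2. The part of such shifts in the S100 differences was not tested.

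Markers of other cells were low, apart from IL7R and NKG7. Summed levels were 44.5 to 56.3 CPM for 10 T and NK cell genes, of which 3 were tested and 0 called. Most of this sum came from IL7R at 25.6 to 31.1 CPM and NKG7 at 14.2 to 20.9 CPM. KLRD1 was at 2.46 to 3.88 CPM, and CD3D and CD2 were at 0. The sum was 6.95 to 13.5 CPM for 5 B cell genes, of which CD79B and PAX5 were called higher in number 2. Sums were 0.479 to 0.971 CPM for 9 erythroid and megakaryocyte genes, 0.923 to 1.92 CPM for 11 epithelial genes and 3.46 to 4.61 CPM for 8 fibroblast and melanocyte genes. Of these lists only 1, 2 and 4 genes were tested, with 0 called in each.

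Genes whose pattern over the 6 libraries was most like that of a member were taken by Euclidean distance of log2 CPM centred on each gene's mean, among 10805 genes, as a description with no test. Nearest to S100A12 were APOBEC3B (distance 0.19), CCNE1 (0.25) and CCL7 (0.27). For S100A8 they were AL121845.3 (0.09), SLC10A3 (0.12) and NRM (0.15), and S100A9 ranked 361. For S100A4 they were NAA10 (0.05), ELK1 (0.07) and IER5 (0.08), and S100A11 ranked 436. The closest member to S100A12 was S100A8, at rank 745.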

How the data were processed

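Polyadenylated RNA of 6 THP1 libraries was quantified per transcript. Per the submitters' processing notes, the authors used CASAVA and kallisto 0.43.1 with the build hg38; the sources used here do not give options or strand setting. The deposited tables hold estimated counts and TPM for 179973 transcripts. The deposited TPM values were used for levels and for 1 alternative test. Estimated counts were summed per GENCODE 29 gene (163714 transcripts matched, 91.0%) and rounded to whole numbers, and the unmatched transcripts (3.13% to 3.32% of counts) were left out. The members and the gene lists were chosen with earlier results of these data known.

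Counts were tested in R 4.3.3 with edgeR 4.0.16 (TMM, filterByExpr, quasi-likelihood, 1 coefficient per group, Benjamini-Hochberg, threshold 0.05, 14497 genes). The numbers were compared in a fit of group and number. A standard error is the absolute log2 value divided by the square root of F. Deviations from the group means correlated at 0.597 to 0.727 between same-numbered libraries, so the numbers pair the libraries, and the block with replicate number is given beside the group results. The common dispersion gave a biological coefficient of variation of 27.7%, or 10.6% once the block was in the fit.

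On simulated data for shALKBH5 against shCtrl (14347 genes), 0% of 2-fold and 0% of 4-fold changes were recovered without the block and 85% and 99% with it, with 28 unchanged genes called. For the numbers (14293 genes) 94% and 100% were recovered, with 28 unchanged genes called. Each simulation changed 200 genes, against 6585 called between the numbers in the data. Changes under 2-fold were not simulated. All group differences of the members were under 2-fold in the fits with and without the block, so the recovery does not bear on them.

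All 10 members, ALKBH5 and, of each list, up to 4 genes by mean TPM and up to 2 by size of a called number difference were named, except 1 item that is not reported here; like genes had a mean of at least 5 CPM and are given for the 3 members with the largest number difference. Counting intervals (95%) and floors of 3 counts cover counting error only, since no molecular identifiers are mentioned. Alternatives were RLE scaling, DESeq2 1.42.0, no filter, at least 1 CPM in at least 2 libraries, log2(TPM + 1) with limma 3.58.1, the block, number alone and leaving out each library.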

Additional observations from a re-analysis of the deposited data

Results flagged for a closer look

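For 6 of the 8 tested members, 2 libraries moved 1 way within a number and the other way within the second, or number differences had opposite signs in 2 groups, beyond counting error in each pair. How many of all tested genes meet this rule was not counted, so the number of members does not set the S100 genes apart. Counting intervals are narrow for genes with many counts, such as 0.03 to 0.06 for S100A9 in shALKBH5 against shCtrl within number 1. With 1 library per group and number, the difference between such pairs was not tested, and 12 pairs of values are given on the log2 CPM scale.

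For ALKBH5 rescue against shCtrl, S100A4 was at 0.20 within number 1 and at -0.36 within number 2. S100A6 was at 0.12 and -0.33, S100A8 at 0.27 and -0.23, and S100A9 at 0.19 and -0.34. S100A10 was at 0.22 and -0.26, and S100A11 at 0.14 and -0.24. For ALKBH5 rescue against shALKBH5, S100A4 was at 0.17 and -0.18, S100A6 at 0.082 and -0.18, and S100A9 at 0.14 and -0.15. For shALKBH5 against shCtrl, S100A9 was at 0.049 and -0.19. The number 2 against 1 difference of S100A6 was 0.061 within shCtrl, -0.13 within shALKBH5 and -0.39 within ALKBH5 rescue. On the log2 TPM scale the rescue against shCtrl values were smaller, at 0.09 and -0.20 for S100A4 and at 0.09 and -0.18 for S100A9. For S100A6 in ALKBH5 rescue against shALKBH5 they had the same sign, at -0.04 and -0.12.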

How the results depend on the processing

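The 5 calls between the numbers kept direction and call with DESeq2, no filter, the stricter CPM filter, log2(TPM + 1) with limma and number alone, and with RLE scaling all but S100A9 did. With 1 library left out, 1 to 5 members were called (2 without shALKBH5 replicate 1 and 1 without shALKBH5 replicate 2) and 3915 to 6811 genes (3915 and 4030 without those 2 libraries). The genes called numbered 6585 in edgeR and 4683 in limma on log2(TPM + 1), of which 50.2% and 60.6% were higher, and that scale moved the median of all genes to 0.09. With 2 libraries a group, values near 0 had no stable sign, and the cause of the sign changes below was not tested.

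The block with replicate number, which pairs the libraries, called 1 gene in shALKBH5 against shCtrl and 1 in ALKBH5 rescue against shCtrl, where the fit without it called 0, and DESeq2 with the block (chosen after seeing the data, as was limma with the block) called 1 in the first. In edgeR this was the pseudogene RPL21P16, named after its values were seen (adjusted p = 0.0104 in the first and 0.0100 in the second). It changed no call of a member. With the block, rescue against shCtrl was 0.026 for S100A8 and 0.030 for S100A12 (DESeq2 0.034 and 0.039), and rescue against shALKBH5 was 0.0047 for S100A9 (DESeq2 0.018). None of these passed.

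Other uncalled values also turned sign. For rescue against shCtrl without the filter, S100A4 was at 0.00013, S100A8 at 0.017, S100A10 at 0.032, S100A11 at 0.0078 and S100A12 at 0.0098. On log2(TPM + 1), with or without the block, S100A8 was at 0.050, S100A10 at 0.033 and S100A12 at 0.054, and S100A10 was at 0.0067 with RLE scaling and 0.0068 with DESeq2. On log2(TPM + 1), with or without the block, rescue against shALKBH5 was -0.035 for S100A4 and -0.064 for S100A13, and shALKBH5 against shCtrl was 5.4e-05 for S100A6. The number difference of S100A10 was 0.11 on that scale.

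Leaving out 1 library gave these ranges for values that turned sign. Rescue against shALKBH5 ran from -0.39 to 0.34 for S100A4, -0.24 to 0.14 for S100A6, -0.094 to 0.58 for S100A8, -0.18 to 0.18 for S100A9, -0.10 to 0.35 for S100A10, -0.17 to 0.34 for S100A11 and -0.33 to 1.13 for S100A12. Rescue against shCtrl ran from -0.45 to 0.28 for S100A4, -0.30 to 0.080 for S100A6, -0.33 to 0.38 for S100A8, -0.38 to 0.23 for S100A9, -0.25 to 0.20 for S100A10, -0.30 to 0.20 for S100A11 and -0.58 to 0.72 for S100A12. For shALKBH5 against shCtrl they were -0.28 to 0.12 for S100A4, -0.12 to 0.0032 for S100A6, -0.60 to 0.18 for S100A8, -0.36 to 0.25 for S100A9, -1.16 to 0.51 for S100A12 and -0.13 to 0.32 for S100A13. The number difference of S100A13 ran from -0.0021 to 0.24. A group left with 1 library was assumed to vary like the other groups. Depth limits S100A13, S100P and S100Z.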
